A study of Mus musculus with 14 samples.

Results

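Glut_1 is a cluster of neuronal nuclei from mouse brain, taken here as every nucleus that the deposited annotation of the brain data labels Glut_1. It holds 3735 of 31324 brain nuclei. Its leading genes, those highest over all other brain nuclei, include *Hoxb3*, *Slc6a4*, *Glra1*, *Chat*, *Slc6a5* and *Tph2*. They mark hindbrain position and glycine, serotonin and acetylcholine neurons, so the data go against a purely glutamatergic reading of the label. The name Glut_1 is kept below only as the name of the cluster.

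The study asked how loss of TGF-beta signaling in endothelial cells changes the vasculature of the central nervous system. Vascular fragments from brain were enriched on Ficoll, and nuclear RNA was counted per nucleus with PIPseq v4.0 PLUS, about 40000 nuclei being loaded per library. There was 1 brain library per genotype, each from the pooled fragments of 2 brains, and neuronal nuclei came along with the vascular ones. The mutant library, called CKO, came from *Cdh5CreER;Tgfbr1 CKO/-* mice, with 1 floxed and 1 null *Tgfbr1* allele. Its Cre is driven by the promoter of the endothelial gene *Cdh5*, so the deletion is directed at endothelial cells and not at neurons, which carry the null allele. The control library is labeled wild type, and the study describes its controls as phenotypically wild type and typically *Cdh5CreER;Tgfbr1 CKO/+*, so that a floxed copy and the Cre may be present there too. Mice of both groups received 4-hydroxytamoxifen between P3 and P5 and were taken at P14 by the methods, while the series text speaks of young adults.

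Neurons release glutamate, GABA, glycine, acetylcholine or monoamines, and each of these transmitters needs its own set of synthetic enzymes and transporters. Forebrain excitatory neurons load glutamate with the transporter *Slc17a7*, while those of thalamus, midbrain and hindbrain mostly use *Slc17a6*. Hox genes are kept on in neurons of the hindbrain and spinal cord and are off in the forebrain and midbrain, so their RNA marks position along the neuraxis.

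The control library held 1632 Glut_1 nuclei among 16649, or 9.80% (95% exact binomial interval 9.35% to 10.3%). The CKO library held 2103 among 14675, or 14.3% (13.8% to 14.9%). The share of all nuclei was higher in CKO, and the intervals here and below cover counting error only: with 1 library per genotype they compare these libraries, not the genotypes. Other neuron clusters moved too, since the share of Glut_5 nuclei, which carry markers of cerebellar granule cells, was 11.2% in control and 1.71% in CKO. Among nuclei labeled as neurons other than Glut_5, Glut_1 made up 25.6% in control and 25.9% in CKO, close in both libraries, so the higher share depends on the nuclei it is taken of. The part of dissection or yield of each region in the Glut_1 share was not tested.

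Depth differed between the libraries. Glut_1 nuclei gave 6930157 UMIs in control and 4423530 in CKO, with medians of 3603 and 1653 UMIs and 1627.5 and 908 genes per nucleus. Levels are therefore given as CPM, the counts of a gene per 1000000 UMIs of the Glut_1 nuclei of a library. No barcode of Glut_1 was shared by the libraries, against 2 over all brain nuclei.

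The libraries also differed in sex-linked RNA. *Xist*, the noncoding RNA of the inactive X chromosome of females, had 6778 UMIs in control and 1 in CKO. In control, 907 nuclei held *Xist* alone, 301 a Y chromosome transcript alone, 134 both and 290 neither. In CKO, 0 nuclei held *Xist* alone, which allows up to 3 counts, 992 held a Y transcript alone, 1 both and 1110 neither. The control library thus held RNA of female and of male nuclei, while in CKO only the Y side was found beyond 1 UMI. Sex and genotype cannot be told apart here for any value that differs between the libraries.

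*Tgfbr1* itself, the floxed receptor gene (chromosome 4, 47353134 to 47414931 in the GRCm39 annotation of GENCODE), had 43 UMIs in control Glut_1 and 10 in CKO, or 6.20 CPM (4.49 to 8.36) and 2.26 CPM (1.08 to 4.16). Its level was lower in CKO, at few counts. UMIs are not assigned to the deleted part, so they check no deletion, and the library label rests on the deposited annotation. *Tgfbr2*, the partner receptor, had 1 UMI in each library. That is too few to compare.

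Glut_1 nuclei were neurons by their general markers. *Nrxn3*, a presynaptic adhesion protein, was found in 90.4% of control and 87.0% of CKO nuclei, and *Syt1*, the calcium sensor of vesicle release, stood at 2320.4 CPM in control and 2300.4 CPM in CKO. *Rbfox3*, the gene of the neuronal splicing factor NeuN, was at 274 CPM in control and 215 CPM in CKO. The level of *Rbfox3* was higher in control. Oligodendrocytes held *Rbfox3* at 76.1 and 17.8 CPM, but oligodendrocyte precursors at 371 and 962 CPM, so this gene does not set Glut_1 apart from the precursors. Oligodendrocytes held a *Nrxn3* UMI in 16.7% of control nuclei (median 2328 UMIs) and 8.44% of CKO nuclei (median 954.5 UMIs), far below the shares in Glut_1.

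Of the vesicular glutamate transporters, Glut_1 held mainly *Slc17a6*, the transporter of subcortical excitatory neurons. It stood at 91.9 CPM in control (84.9 to 99.3) and 93.8 CPM in CKO (85.0 to 103), level between the libraries. *Slc17a7*, the transporter of cortical and hippocampal neurons, had 35 UMIs in control and 11 in CKO, or 5.05 and 2.49 CPM, against 118 and 143 CPM in the cortical-type cluster Glut_0. *Slc17a8*, found in scattered neurons such as those of the raphe, was at 11.5 CPM in control and 8.59 CPM in CKO. A glutamatergic component of Glut_1 is therefore of the *Slc17a6* kind.

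Genes of inhibitory transmission were as plain. *Gad2*, which makes GABA, stood at 131 CPM in control (122 to 139.7) and 132 CPM in CKO (121 to 143). The GABAergic cluster GABA_9 held 209.8 CPM in control and 223 CPM in CKO. *Gad1*, the other GABA-making enzyme, was at 48.2 CPM in control and 60.6 CPM in CKO, and *Slc32a1*, which loads GABA and glycine into vesicles, at 12.7 and 11.5 CPM. *Slc6a5*, the plasma membrane transporter that marks glycine neurons, reached 43.4 CPM in control and 55.4 CPM in CKO, and its level in GABA_9 was 2.18 and 0.671 CPM. In the other GABAergic cluster, GABA_22, *Slc6a5* was higher than in Glut_1 in control, at 81.6 CPM from 23 UMIs, with 0 UMIs in CKO, and *Gad2* was at 578 and 425 CPM. The inhibitory genes were thus present in both libraries at levels far over those of the glutamatergic cluster Glut_0, where *Gad2* was at 5.42 and 2.17 CPM.

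Most nuclei held RNA of one kind or of neither. In control, 379 nuclei (23.2%, 21.2% to 25.3%) held a vesicular glutamate transporter alone, 520 (31.9%, 29.6% to 34.2%) held *Gad1*, *Gad2*, *Slc32a1* or *Slc6a5* alone, 74 (4.53%) held both and 659 (40.4%) neither. In CKO the shares were 14.7% (13.2% to 16.3%), 27.2% (25.3% to 29.2%), 1.85% and 56.3%. Nuclei with inhibitory genes alone outnumbered those with a glutamate transporter alone in both libraries. The inhibitory set is easier to detect, since *Gad2* alone stood at 131 and 132 CPM, against 91.9 and 93.8 CPM for *Slc17a6*. With many nuclei holding neither as well, these counts do not give the share of neurons of each kind. Among oligodendrocytes the glutamate and inhibitory shares were 1.33% and 1.16% in control and 0% and 0.469% in CKO.

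These shares depend on depth, so every nucleus was also thinned to 1000 UMIs. That step kept 1373 control and 1453 CKO nuclei, out of 1632 and 2103. The glutamate-only share was then 8.89% in control (7.43% to 10.5%) and 9.70% in CKO (8.23% to 11.3%), and the inhibitory-only share 19.5% (17.5% to 21.7%) and 20.3% (18.3% to 22.5%). The libraries' intervals overlapped for both classes. Nuclei with both kinds came to 8 in control and 4 in CKO. In thinned oligodendrocytes the inhibitory-only share was 1.01% in control and 0.336% in CKO.

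**Figure D1:**
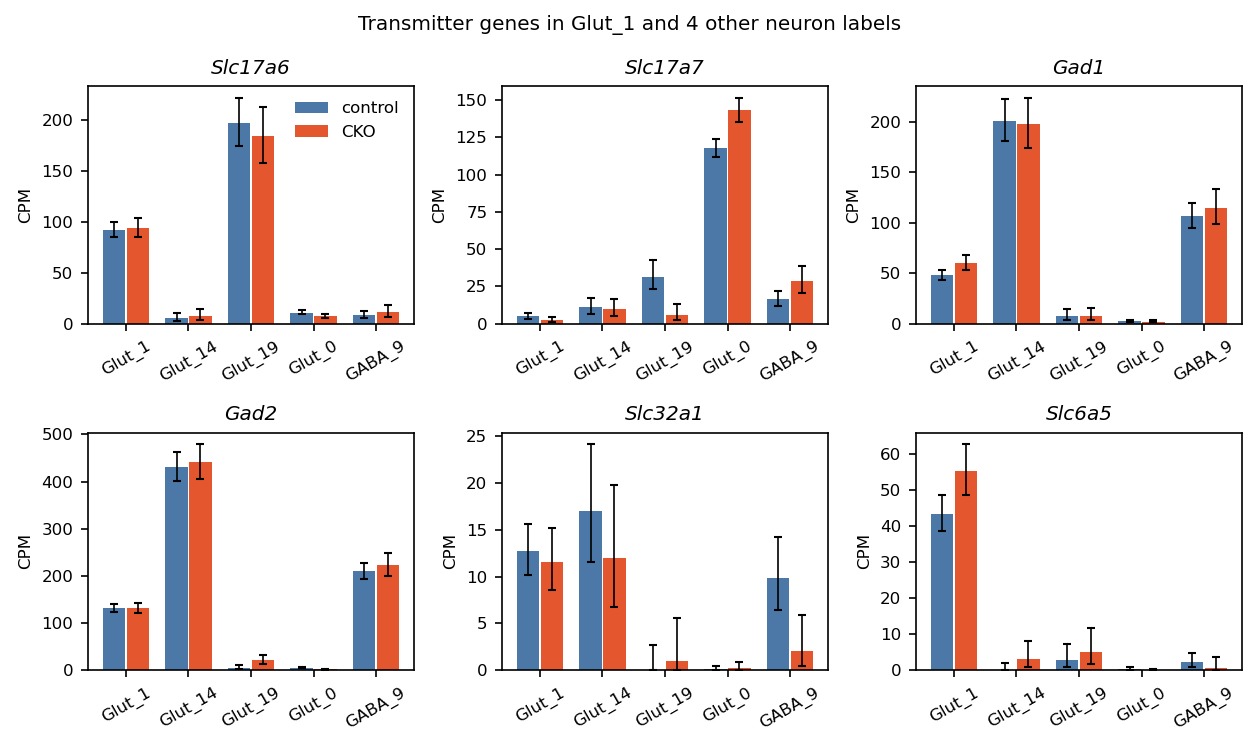
Level of 6 genes in the Glut_1 nuclei and in 4 other neuron clusters, in CPM, with 1 bar per library and exact Poisson 95% intervals. Glut_1 holds both the glutamate transporter gene Slc17a6 and the inhibitory genes Gad1, Gad2, Slc32a1 and Slc6a5, while the cortical transporter gene Slc17a7 is near the foot of the axis.

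Monoamine and acetylcholine genes came from few nuclei. *Tph2*, the enzyme of serotonin synthesis in the brain, was at 22.1 CPM in control and 33.7 CPM in CKO, from 21 nuclei (1.29%) in control and 22 (1.05%) in CKO. *Slc6a4*, the serotonin transporter, was at 12.3 CPM in control and 13.6 CPM in CKO, over 0.280 and 0.188 CPM in the rest of the brain nuclei. *Chat*, the enzyme of acetylcholine synthesis, was at 19.0 CPM in control and 13.6 CPM in CKO, from 38 nuclei (2.33%) and 29 nuclei (1.38%). Astrocytes held *Tph2* at 11.7 CPM in control and 17.8 CPM in CKO, from 16 and 9 UMIs. Oligodendrocytes held a *Tph2* UMI in 0% of nuclei of either library and a *Chat* UMI in 0.166% and 0.156%. *Slc18a2*, which loads monoamines into vesicles, was at 18.2 CPM in control and 23.1 CPM in CKO. A nucleus can carry such RNA and give 0 UMIs, so these counts do not limit the share of serotonin or acetylcholine neurons.

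Genes of several brain regions were higher than in the other neurons, those of hindbrain, midbrain and hypothalamus among them. Marker lists of 26 neuron classes and regions were compared with the 10 other neuron clusters as a whole. The pons and medulla list summed to 178 CPM in control and 202 CPM in CKO, against 30.1 and 24.6 CPM in the other neurons. More than any other member *Slc17a6* made up that sum, and it also stands in the midbrain and thalamus lists. Without *Slc17a6* and *Slc6a5* the 7 genes left summed to 42.4 CPM in control (37.7 to 47.6) and 52.9 CPM in CKO (46.3 to 60.1), against 1.55 and 1.68 CPM in the other neurons. They are mostly Hox genes and *Lmx1b*, a transcription factor of serotonin and dorsal hindbrain neurons, which was at 13.1 and 18.5 CPM, against 0.448 and 0.712 CPM.

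The midbrain list summed to 156 CPM in control and 158 CPM in CKO, against 42.2 and 36.3 CPM in the other neurons. Without *Slc17a6* its 8 other genes summed to 63.6 CPM in control (57.8 to 69.9) and 64.2 CPM in CKO (57.0 to 72.1), against 15.7 and 14.5 CPM. Among them *Gata3*, a factor of inhibitory neurons of midbrain and hindbrain, was at 14.3 CPM in control and 14.5 CPM in CKO, against 0.244 and 0.259 CPM, and *Tfap2d*, a factor of the dorsal midbrain, at 32.8 and 32.3 CPM, against 8.42 and 8.15 CPM. The hypothalamic list of 8 genes summed to 18.5 CPM in control and 26.7 CPM in CKO, against 2.32 and 2.20 CPM, most of it *Sim1*, a factor of hypothalamic neurons. Glut_1 thus held genes of several regions, and the lists do not give the share of nuclei from each.

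General genes of cortical and hippocampal glutamatergic neurons and genes of cerebellar granule neurons were low, while lists of single cortical layers and hippocampal fields were mixed. Of 13784 genes with at least 10 UMIs in Glut_1, 963 (6.99%) were at least 2-fold lower there than in the other neurons in both libraries, and 1949 (14.1%) at least 2-fold higher. Of the list of cortical and hippocampal glutamatergic neurons, 7 of 7 genes with that many UMIs were lower. That list summed to 154 CPM in control and 117 CPM in CKO, against 974 and 1106 CPM in the other neurons. The list of CA1 neurons was lower too, at 208 and 169.5 CPM against 595 and 673 CPM. Others were higher than in the other neurons, such as layer 6 intratelencephalic neurons at 1103 and 1286 CPM against 641 and 784 CPM, near-projecting neurons at 791 and 871 CPM against 403 and 475 CPM, and CA3 neurons at 1148 and 1277 CPM against 796 and 805 CPM. The higher sums of the layer 6 and CA3 lists came from 1 gene each. Without *Zfp804b* the layer 6 list was at 166 and 172 CPM against 230.5 and 228 CPM, and without *Elavl2* the CA3 list was at 503 and 563 CPM against 563 and 561 CPM, with *Nectin3* and *Galnt3* at least 2-fold lower. Without *Vwc2l* the near-projecting list was at 516 and 534 CPM against 316 and 375 CPM. These 3 genes were the only members of these lists at least 2-fold higher. All 10 cerebellar granule genes with that many UMIs were lower as well. The Purkinje list was lower too, at 424 CPM in control and 398 CPM in CKO, against 1238 and 1263 CPM. Most of it in the other neurons was *Itpr1*, at 92.5 and 87.7 CPM in Glut_1 against 810 and 820 CPM. *Car8* and *Ppp1r17* were also at least 2-fold lower, while *Foxp2* was higher, at 303 and 281 CPM against 241 and 240 CPM. By contrast, the list of cerebellar interneurons summed to 705 CPM in control and 808 CPM in CKO, against 440.2 and 411 CPM, most of it *Sorcs3*, a sorting receptor. Without *Sorcs3* it was at 161 and 173 CPM against 85.2 and 53.1 CPM, with *Slc6a5*, *Pax2* and *Tfap2b* at least 2-fold higher, *Prkcd* at least 2-fold lower, and *Kit*, a receptor kinase, lower at 21.9 and 4.30 CPM against 36.4 and 16.2 CPM. *Lmx1a*, a factor of unipolar brush cells among others, was at 9.81 and 9.49 CPM, against 1.06 and 0.647 CPM. Thalamic genes split. *Zfhx3*, at 858 CPM in control and 1032 CPM in CKO, was higher than in the other neurons pooled, at 122 and 135 CPM. The cluster Glut_19 alone held *Zfhx3* at 1035 and 1200 CPM, above Glut_1. *Lef1*, *Prkcd* and *Plekhg1* were lower than in the other neurons.

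The whole Hox family was then counted. Of 25 Hox genes in the data, 19 had a UMI in Glut_1 of control and 18 in CKO, with 639 and 354 UMIs in all. *Hoxb13*, a gene of the posterior body axis, gave 274 and 106 of these and was also spread over clusters such as Glut_0, so it was set aside. The other 24 genes stood at 52.7 CPM in control (47.4 to 58.4) and 56.1 CPM in CKO (49.3 to 63.5). The median of the 20 other clusters was 3.63 CPM in control and 3.03 CPM in CKO, and the next highest was Glut_20 with 32.3 and 39.3 CPM from 17 and 7 UMIs. By position in the Hox clusters, paralog group 3 gave 26.1 CPM in control and 29.6 CPM in CKO, paralog group 4 gave 17.0 and 14.7 CPM, and paralog groups 1 and 2 together gave under 20 UMIs in either library. Paralogs 3 and 4 are the Hox genes whose expression begins within the caudal hindbrain.

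The rule for leading genes gave 20 names. Beside the transmitter and Hox genes (*Hoxb3*, *Hoxd4*) it gave *Glra1*, the adult glycine receptor subunit, at 143 CPM in control and 158 CPM in CKO, against 3.48 and 2.44 CPM in the rest of the brain nuclei. The pooled rest hides clusters with these genes: Glut_20 held *Glra1* at 85.4 CPM in control. *Baiap3*, a regulator of dense-core vesicle release, stood at 58.6 and 62.6 CPM, 25.4 and 20.1 times the rest. *Onecut1* and *Pax8*, transcription factors of hindbrain neurons among other cells, were at 10.4 and 8.80 CPM in control and 17.6 and 14.5 CPM in CKO. *Ecel1*, a membrane peptidase, was at 12.6 and 14.7 CPM, below the 15.2 CPM of Glut_20 in control, and *Dgkk*, a diacylglycerol kinase, at 37.8 and 45.7 CPM. The others were *Gm26633*, *Ubap1l*, *D130079A08Rik*, *Gm26673*, *Pmfbp1*, *Zim1* and *A330074K22Rik*. Since the cluster was drawn from these same nuclei, these levels describe it and are no test.

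The most abundant transcripts were long nuclear RNAs and long neuronal genes, level between the libraries. *Malat1*, a noncoding RNA of nuclear speckles, was at 37596 CPM in control and 31674 CPM in CKO, and *Meg3*, an imprinted noncoding RNA of neurons, at 23220.0 and 26919 CPM. After them came *Lsamp*, *Cntnap2*, *Pcdh9*, *Nrg3*, *Rbfox1*, *Nrxn3*, *Kcnip4* and *Lrrtm4*, which encode adhesion molecules, a growth factor, a splicing factor and a channel subunit. The 10 together took 11.4% of UMIs in control and 11.6% in CKO.

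Of the other clusters, those most alike in expression were Glut_14, with Spearman correlations across 16314 genes of 0.937 in control and 0.938 in CKO, and Glut_19, with 0.936 and 0.934. Genes are not independent, and the correlations only rank the clusters. Glut_14 is itself rich in *Gad2*, at 431 CPM in control and 441 CPM in CKO, with *Slc17a6* at 6.04 and 8.00 CPM. Glut_19 held *Slc17a6* at 197 and 183 CPM with *Tcf7l2*, a factor of thalamus and habenula, at 839 and 1021 CPM.

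Against Glut_14, 645 of 8281 genes (7.79%) were at least 2-fold higher in Glut_1 in both libraries and 287 (3.47%) at least 2-fold lower. Highest were *Ebf3*, an early B-cell factor of developing neurons, at 117 CPM in control and 134 CPM in CKO against 4.39 and 4.80 CPM, and the noncoding RNAs *Gm12239*, *Rmst* and *2700069I18Rik*. *Nefl*, a neurofilament of large axons, *Isl1*, a factor of cholinergic and other neurons, *Onecut1*, *Tph2* and *Glra1* were among them too. *Slc6a5* had 0 UMIs in control Glut_14, so that Glut_1 was at least 26.4-fold higher there, and 4 in CKO. Among the lowest in Glut_1 was *Dlx1as*, the antisense partner of an interneuron factor, at 2.89 and 3.16 CPM against 86.2 and 85.6 CPM. The neuropeptide gene *Vip* had 6 and 4 UMIs, or 0.866 and 0.904 CPM, against 47.8 and 28.0 CPM. The others were *Gm31218*, *Egfr*, *Eya4*, *Fgd3*, *Igsf11*, *Moxd1*, *Zeb2* and *Rnf144b*.

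Against Glut_19, 573 of 8288 genes (6.91%) were at least 2-fold higher in Glut_1 in both libraries and 377 (4.55%) at least 2-fold lower. *Ebf2* and *Ebf3* were again high, *Ebf2* at 97.4 CPM in control and 98.1 CPM in CKO against 6.46 and 5.98 CPM. *Pax2*, a factor of inhibitory neurons of hindbrain and cerebellum, stood at 22.4 and 28.0 CPM against 1.44 and 1.99 CPM. *Tacr1*, the substance P receptor, was at 57.1 and 51.5 CPM against 5.03 and 3.99 CPM, and *Klhl1*, *Frmpd3*, *Rerg*, *Pmfbp1*, *AW551984* and *Gm11418* completed the list. Lower were *Lef1*, a Wnt effector, at 18.6 and 17.4 CPM against 626 and 644 CPM, and *Prkcd*, a protein kinase C, at 2.45 and 3.39 CPM against 159 and 136 CPM. The others were *Gm20752*, *Prkch*, *Plekhg1*, *Sh2d4b*, *Synpo2*, *Usp43*, *Tspan14* and *Trpm6*.

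Clustering the Glut_1 nuclei alone gave 11 groups, called here by their leading genes. Group 1, the largest, held 680 control and 1057 CKO nuclei and was led by *Gm28526*, *Nek10*, *Baiap3*, *Vwa5b1* and *Gm45194*. It held both *Slc17a6*, at 105 CPM in control and 109 CPM in CKO, and *Gad2*, at 147 and 146 CPM. The largest group was thus itself mixed in transmitter. Group 2, with 272 and 482 nuclei, was led by *Gm20560*, *Col5a2*, *Tph2*, *Ahnak2* and *Aff1*. It gave 127 of the 153 control *Tph2* UMIs and 107 of the 149 in CKO, with *Slc6a5* at 98.6 and 116 CPM and *Slc17a6* at 81.8 and 74.8 CPM. Serotonin genes therefore share a group with glycine and glutamate genes at this resolution.

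Groups 4, 6 and 9 were closer to 1 transmitter, while group 8 held genes of several. Group 4 (89 control and 77 CKO nuclei; *Tfap2d*, *Lhx9*, *Tcf7l2*, *Ndst4*, *Foxp2*) held *Slc17a6* at 300.2 CPM in control and 256 CPM in CKO, with 0 *Gad1* UMIs in either library, which allows up to 3 counts. Other inhibitory genes in group 4 had few UMIs. *Gad2* had 0 in control and 3 in CKO (23.3 CPM), and *Slc6a5* had 1 (3.19 CPM) and 4 (31.0 CPM). Group 6 (33 and 49; *Gm42303*, *Rnf220*, *Synpo2*, *Grm3*, *B130024G19Rik*) held *Gad2* at 256 and 319 CPM, and *Slc17a6* at 48.4 and 63.9 CPM from 7 UMIs in each library. Group 9 (13 and 15; *Otx2os1*, *Pcbp3*, *Trpm3*, *Adamtsl1*, *Pdzd2*) held *Gad2* at 417 and 716 CPM, with 0 *Slc17a6* UMIs. Group 8 (32 and 29; *Pax2*, *Gpc5*, *Rorb*, *Grm3*) had *Slc6a5* at 268 and 198 CPM and *Hoxb3* at 73.1 and 90.2 CPM, from 9 and 5 UMIs, with 0 *Slc17a6* UMIs. It held *Gad2* at 130.0 and 180.4 CPM and *Gad1* at 106 and 108 CPM as well, and *Chat* at 16.2 CPM in control and 126 CPM in CKO, from 2 and 7 UMIs. Of all groups, this one had the highest *Slc6a5* level in both libraries.

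Group 7 (35 control and 34 CKO nuclei; *Prima1*, *Drd2*, *Chat*, *Ntn1*, *Slc5a7*) held *Chat* at 248 CPM in control and 224 CPM in CKO and the choline transporter gene *Slc5a7* at 248 and 198 CPM. It held the monoamine gene *Slc18a2* at 283 and 158 CPM as well, and *Ddc*, the decarboxylase of monoamine synthesis, at 283 and 65.9 CPM from 49 and 5 UMIs. These genes were not confined to group 7, since group 2 gave 52 *Chat* UMIs in control and 24 in CKO, against 43 and 17 in group 7, and 88 and 13 *Ddc* UMIs, and group 8 gave 2 and 7 *Chat* UMIs. The last groups were group 5 (46 and 72; *Col27a1*, *Lama1*, *Col4a4*, *Fam107b*, *Loxl1*), group 10 (7 and 12; *Ano2*, *D130009I18Rik*, *D130079A08Rik*, *Stac*, *Maml2*) and group 11 (13 and 6; *Ebf2*, *Vav3*, *Ebf1*, *Gpc5*, *Pitpnc1*), with *Slc17a6* and little or no *Gad2*. In group 5, *Slc17a6* was at 98.6 CPM in control and 107 CPM in CKO and *Gad2* at 16.4 and 15.2 CPM. Groups 4, 7, 9 and 11 had 0 *Hoxb3* UMIs in both libraries. In control and CKO this allows up to 11.8 and 28.6 CPM in group 4 and 21.3 and 48.6 CPM in group 7. The limits were 103 and 203 CPM in group 9 and 85.8 and 419 CPM in group 11. All of Glut_1 held *Hoxb3* at 13.3 and 16.5 CPM, so the zeros of groups 7, 9 and 11 do not set them apart.

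Group 3 stood apart, with 412 control nuclei (25.2%) and 270 CKO nuclei (12.8%). It was led by *Pdgfra*, *Gm42912*, *Tns3*, *Bcas1* and *Nhsl1*, genes of the oligodendrocyte lineage among them. Of 6997 genes found in at least 5% of its nuclei, 393 (5.62%) were raised at least 2-fold over the rest of Glut_1. Of 11 cerebellar granule markers 7 were found in that share of nuclei and all 7 were raised, and of 8 astrocyte markers 4 were found and 3 raised. *Gabra6*, the GABA receptor subunit of granule cells, was at 55.0 CPM there in control and 17.5 CPM in CKO. Neuronal genes were present as well, with *Gad2* at 163 and 141 CPM and *Slc17a6* at 61.6 and 66.1 CPM. Some of its leading genes are those of other cell types. The levels of some differed between the libraries, such as *Bcas1* at 21.8 CPM in control and 62.4 CPM in CKO. *Pdgfra* was level at 18.0 and 18.7 CPM. The size of group 3 is therefore not compared, and whether RNA of other cells made the group was not tested.

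**Figure D2:**
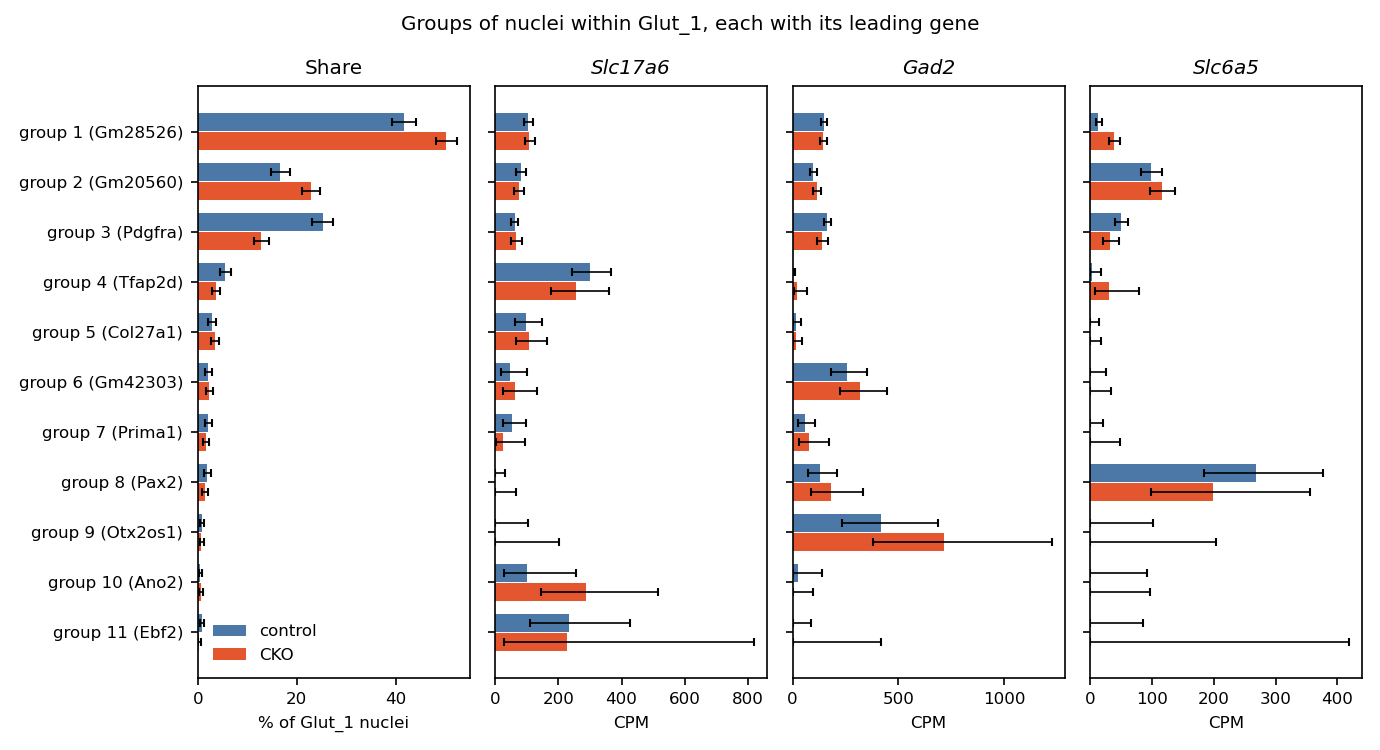
Share of Glut_1 nuclei in each of 11 groups (percent, exact binomial 95% intervals) and level of Slc17a6, Gad2 and Slc6a5 (CPM, exact Poisson 95% intervals), with 1 bar per library. Groups 1 to 3 hold all 3 genes, group 4 mainly Slc17a6, groups 6 and 9 mainly Gad2, and group 8 Gad2 with Slc6a5.

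The question put to the 2 libraries was how far Glut_1 nuclei of the brain with endothelial loss of *Tgfbr1* differ from those of the control. Of 7731 genes with at least 100 UMIs over both libraries, 24 (0.31%) had at least a 2-fold higher level in CKO and 337 (4.36%) at least a 2-fold lower one, 361 (4.67%) in all. Most genes were level: 6675 (86.3%) lay within 1.5-fold, and the median log2 ratio of CKO over control was −0.04. Genes of low depth made up most of those past 2-fold, 219 of the 337 lower and 15 of the 24 higher having under 200 UMIs. The whole 95% interval of the ratio lay past 2-fold for 107 of the lower and 5 of the higher genes. Without the X and Y chromosomes 21 of 7472 genes were higher (0.281%) and 326 lower (4.36%), and without group 3, where 6864 genes had enough UMIs, 23 (0.335%) and 263 (3.83%). With no replicate there is no test, and these genes are called past 2-fold, not changed.

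**Figure D3:**
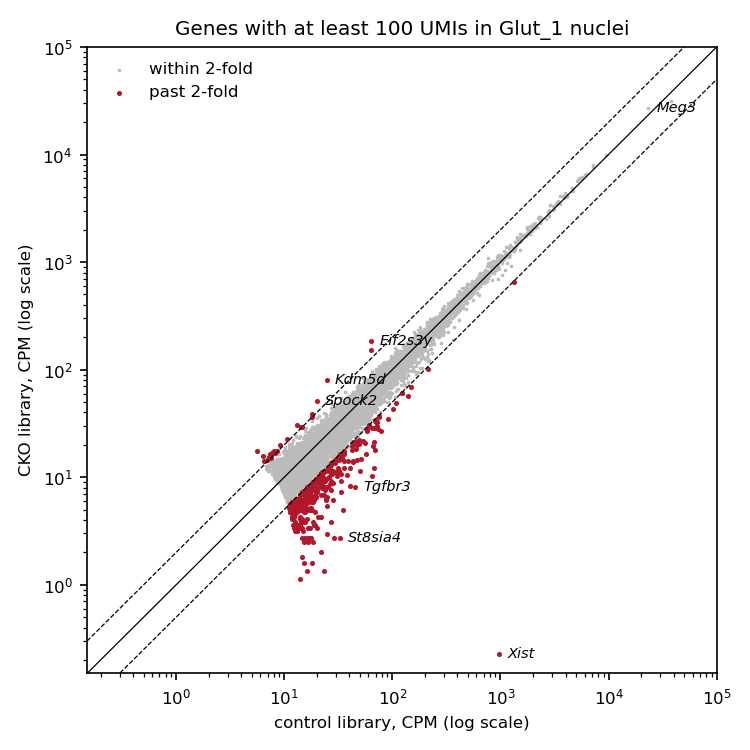
Level of each gene with at least 100 UMIs in the Glut_1 nuclei of the control (x) and CKO (y) library, in CPM on log axes, with lines at equal level and at 2-fold. Points past 2-fold are red and lie mostly below the diagonal, among genes of low level, and 2 genes with 0 UMIs in CKO are not drawn.

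Of the genes of the TGF-beta pathway, 16 receptors and ligands and 20 SMAD genes with targets were followed. With enough UMIs, 8 and 8 could be compared, the median log2 ratios being −0.31 and −0.20 beside −0.04 over all genes. *Tgfbr3*, the co-receptor betaglycan that presents TGF-beta ligands, was at 45.3 CPM in control and 8.14 CPM in CKO, from 314 and 36 UMIs, a ratio of 0.180 (0.124 to 0.254). Its ratio was 2.92 (2.68 to 3.18) in endothelial nuclei, from 120.3 to 351 CPM, 0.312 in the other neuron clusters, and 1.07 (1.02 to 1.11) over the rest of the brain nuclei, which pools these and all others. *Smad4*, the common mediator of TGF-beta and BMP signals, was at 12.8 and 4.97 CPM. These 2 of 16 tested members were past 2-fold, both lower, beside 4.36% lower over all genes. Within 2-fold lay the activin receptor *Acvr1*, at 101 and 84.5 CPM, the BMP receptors *Bmpr1a*, at 73.0 and 57.2 CPM, and *Bmpr2*, at 83.1 and 61.3 CPM, and the ubiquitin ligase *Smurf1*, at 88.2 and 114 CPM.

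The genes with the highest ratios included 3 of the Y chromosome. *Kdm5d*, a histone demethylase, was at 24.7 CPM in control and 80.7 CPM in CKO, *Eif2s3y*, a translation factor, at 63.2 and 184 CPM, and *Uty*, a demethylase homolog, at 63.6 and 153 CPM. They follow the sex difference given above. Off the Y chromosome, *Spock2*, a proteoglycan of the brain matrix, led with 20.1 CPM in control and 50.9 CPM in CKO, a ratio of 2.54 (2.04 to 3.16). Its ratio was 3.16 in the other neuron clusters and 0.572 in the rest of the brain nuclei as a whole. Endothelial nuclei gave 14970 of the 16397 control UMIs of that rest, with a ratio of 0.288. The interval of the next, *Brap*, a regulator of MAPK signaling, ran from 1.80 to 3.13 around 2.37. *Arf3*, *Pip4k2b*, *Vgf*, *Polg* and *Dvl1*, for vesicle traffic, phosphoinositides, a secreted neuronal peptide, the mitochondrial DNA polymerase and Wnt signaling, had ratios from 1.99 to 2.11.

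The lowest ratio was that of *Xist*. After it came *St8sia4*, which adds polysialic acid to NCAM, at 32.5 CPM in control and 2.71 CPM in CKO from 225 and 12 UMIs, a ratio of 0.0836 (0.0425 to 0.149). The same gene had a ratio of 0.335 in the other neuron clusters and 1.27 in endothelial nuclei. *Garre1*, a Rac1 effector, was at 28.6 and 2.71 CPM, and *Sh3bp5*, an exchange factor for Rab11, at 27.1 and 3.84 CPM. *Slc6a6*, the taurine transporter, was at 64.8 and 10.2 CPM, a ratio of 0.157 (0.113 to 0.214), against 0.539 in the other neuron clusters. *Fbxl7*, a ubiquitin ligase subunit, was at 68.3 and 12.2 CPM, and *Tspan13*, *Ildr2* and *Gm4876* had ratios of 0.142, 0.208 and 0.216. All of the 10 but *Xist*, *Tgfbr3* and *Gm4876* had a ratio over 1.2 in the rest of the brain nuclei. All 10 were under 1 in the other neuron clusters. That rest pools all other clusters, so its ratio also moves with the share of each cluster in it. In endothelial nuclei alone *Garre1* had a ratio of 1.04 and *Tspan13* 1.03, against 1.59 and 1.31 in the rest. *St8sia4* and *Slc6a6* were also lower there than in the rest, and *Sh3bp5*, *Fbxl7* and *Ildr2* higher, at 2.48, 1.42 and 4.21. The part of pooling in the ratios of the rest was not tested. Several of the 10 genes were abundant in control endothelial nuclei, with *Slc6a6* at 2165 CPM, *Garre1* at 1093 CPM, *Fbxl7* at 590.0 CPM, *St8sia4* at 511 CPM and *Tspan13* at 484 CPM. Of the others, *Xist* was at 2247 CPM, *Ildr2* at 206 CPM, *Tgfbr3* at 120 CPM, *Sh3bp5* at 115 CPM and *Gm4876* at 10.5 CPM. Endothelial markers in Glut_1 were at 21.5 CPM in control and 1.36 CPM in CKO, and the part of endothelial RNA in these lower levels was not tested.

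RNA of several other cell types was also lower in CKO. The endothelial markers summed to 21.5 CPM in control (18.2 to 25.2) and 1.36 CPM in CKO (0.498 to 2.95), from 149 and 6 UMIs over 10 genes, 2 and 8 of them at 0, the most abundant being *Mecom*. Cerebellar granule markers summed to 132 CPM in control (124 to 141) and 31.4 CPM in CKO (26.4 to 37.1) over 11 genes, led by *Etv1*. Microglial markers stood at 33.9 and 15.4 CPM over 7 genes, and pericyte markers at 3.46 and 0.226 CPM over 8 genes, 4 and 7 of them at 0. RNA of these cell types was thus lower in CKO, and in the endothelial nuclei themselves the list stood at 15294 and 12339.6 CPM. The granule list in Glut_5 stood at 6904 CPM in control and 6659 CPM in CKO. In their own nuclei the microglial list, at 10622.5 and 2186 CPM, and the pericyte list, at 19533 and 10311.5 CPM, were lower in CKO too. Both labels held few UMIs in CKO, where 13 UMIs of *Zfhx3* made 888 CPM in microglia and 6 made 651 CPM in pericytes. The microglia label also held the neuronal gene *Rbfox3*, at 188 CPM in control and 1025 CPM in CKO, from 15 UMIs each.

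The remaining marker lists had few UMIs or were carried by 1 gene. Vascular smooth muscle markers summed to 0.866 and 0.452 CPM over 5 genes, 4 of them at 0 in each library, ependymal ones to 1.59 and 0.226 CPM over 5 genes, and erythroid ones to 7.65 and 2.94 CPM over 5 genes, led by *Hbb-bs*. Fibroblast markers gave 77.3 and 47.7 CPM, nearly all *Bnc2*, which neurons also express, and 4.76 and 0.904 CPM without it. The astrocyte list summed to 1066 and 1105 CPM, of which *Gpc5* gave 913 and 1021 CPM. Without *Gpc5* it was lower in CKO, at 154 CPM in control (145 to 163) and 83.4 CPM in CKO (75.1 to 92.4), and *Slc4a4*, a bicarbonate transporter, was past 2-fold lower at 101 and 43.2 CPM. The list of oligodendrocyte precursors summed to 1398 and 1552 CPM, of which *Lhfpl3* gave 1362 and 1527 CPM, and to 35.8 and 25.3 CPM without it. The choroid plexus list had 702 and 652 CPM with *Htr2c*, a serotonin receptor of neurons as well, at 643 and 634 CPM, and *Ttr*, the transthyretin of choroid plexus, at 57.0 and 16.5 CPM. Oligodendrocyte markers were at 35.6 and 31.4 CPM, where members went opposite ways: *Mbp*, a myelin protein, was at 5.77 and 10.6 CPM, and *St18*, a transcription factor, past 2-fold lower at 24.1 and 9.72 CPM. The part of RNA from other cells in the genes past 2-fold was not tested beyond the count given without group 3 and the one without nuclei holding 2 markers of another cell type, where of 6740 genes 209 were lower (3.10%) and 35 higher (0.519%).

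Genes of neuronal function mostly lay within 2-fold. Of 28 function lists, 8 had a member past 2-fold, and of 284 different genes tested 4 were past 2-fold higher and 5 lower, against 0.31% and 4.36% over all genes. The higher ones were *Vgf* and the 3 Y chromosome genes, and the lower ones were *Slc38a2*, *Tgfbr3*, *Smad4*, *Hif1a* and *Xist*. At such shares over all genes, 0 past 2-fold is little apart from them for any of the short function lists below.

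Glutamate handling and receptors are the first of these. *Slc38a2*, an amino acid transporter that can supply glutamine, was at 50.4 CPM in control and 11.3 CPM in CKO. *Slc1a1*, the neuronal glutamate transporter, was at 81.7 and 74.8 CPM. Only the first of these was past 2-fold. None of 12 AMPA receptor genes tested was past 2-fold, with a median log2 ratio of 0.02. The subunit *Gria2*, which keeps calcium out, was at 1202 CPM in control and 1116 CPM in CKO, and *Gria4*, common in brainstem, at 1692 and 1731 CPM. Nor was any of 5 NMDA receptor genes, such as the obligatory subunit *Grin1* at 241 and 271 CPM, of 9 kainate and delta receptor genes, or of 6 metabotropic receptor genes. Their medians were 0.17, 0.15 and 0.08, and *Grik1*, a kainate receptor subunit, at 766 and 1084 CPM, was the member farthest from level among the kainate genes.

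On the postsynaptic side of inhibition 13 GABA receptor genes were tested, with 0 past 2-fold and a median of −0.07. Of 17 genes of the postsynaptic density 0 were past 2-fold (median −0.05), *Dlg1*, a scaffold, having the lowest ratio with 169 CPM in control and 95.9 CPM in CKO. Of 24 vesicle release genes 0 were past 2-fold (median 0.00), and the priming factor *Unc13b* was the lowest of them at 77.6 and 40.7 CPM. Of 29 adhesion genes that span the synapse 0 were past 2-fold (median 0.12), among them *Nlgn1*, a neuroligin, at 4149 and 4109 CPM.

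Ion channels set the firing of the neuron. No gene was past 2-fold among 8 sodium channel genes (median 0.04), 31 potassium and HCN channel genes (median 0.04) and 13 calcium channel genes (median −0.02). *Scn1a*, a sodium channel of fast-firing neurons, was at 574 CPM in control and 595 CPM in CKO, *Kcnc1*, a potassium channel of the same kind of cell, at 129 and 143 CPM, and *Cacna1a*, the calcium channel of transmitter release, at 692 and 724 CPM. *Hcn2*, a pacemaker channel, was at 24.4 and 35.7 CPM. Over all genes with at least 500 UMIs, 3 of 3438 (0.0873%) were at least 2-fold higher and 28 (0.814%) lower, and 0 past 2-fold in these lists is little apart from that.

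Wiring genes behaved alike. Of 13 classical cadherins (median 0.08), 7 protocadherins (0.09) and 33 axon guidance genes (0.05) tested, 0 were past 2-fold. *Cdh20*, a cadherin, was at 94.9 CPM in control and 57.6 CPM in CKO, *Dcc*, the netrin receptor, at 2027 and 2106 CPM, and *Robo1*, a slit receptor, at 2009 and 2254 CPM. Of 7 genes of immature neurons 0 were past 2-fold (median −0.02), with *Dcx*, a microtubule protein of young neurons, at 103 and 109.9 CPM.

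Peptides and activity genes were sparse. Of 19 neuropeptide and peptide processing genes 10 were tested, and *Vgf* was past 2-fold at 18.0 CPM in control and 36.2 CPM in CKO, a ratio of 2.01 (1.58 to 2.55), though at 1.71 with nuclei of at least 1000 UMIs, 1.91 with equal weight per group and 1.90 without group 3, while *Pcsk2*, a prohormone convertase, was at 900.4 and 837 CPM. Of 19 immediate early genes only *Homer1*, at 99.1 and 76.9 CPM, had enough UMIs, and *Fos* had 14 UMIs in control and 6 in CKO. Among 12 late response genes 5 were tested, with *Bdnf*, a neurotrophin, at 25.7 and 21.9 CPM. Activity could therefore be read from few genes here.

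Stress and inflammation lists had little signal. Of 22 interferon response genes in the data 15 had 0 UMIs in both libraries, none could be tested, and the list summed to 16.6 CPM in control and 6.56 CPM in CKO. Of 16 NF-kB and cytokine genes 3 were tested (median −0.64), with *Nfkb1*, a subunit of NF-kB, at 110.4 and 74.8 CPM, *Rel* at 10.8 and 6.33 CPM and *Stat3* at 19.8 and 12.7 CPM. All 3 were lower in CKO and none was past 2-fold. Of 8 hypoxia and glycolysis genes tested (median 0.02) *Hif1a*, the oxygen-regulated factor, was past 2-fold at 33.0 and 16.5 CPM, a ratio of 0.499, though within 2-fold with TMM scaling (0.521), with nuclei of at least 1000 UMIs (0.522) and with equal weight per group (0.561), while its target *Vegfa* was at 20.2 and 14.7 CPM and *Pdk1*, a glycolytic switch, at 27.7 and 24.4 CPM. Of the stress list only *Hsph1*, a heat shock protein, was tested, at 8.66 and 13.1 CPM. Mitochondrial transcripts summed to 6.64 and 5.20 CPM over 10 genes.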

How the data were processed

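The deposited values are UMI counts per gene and nucleus. The authors aligned and counted reads, removed background and doublets, and labeled nuclei after clustering in Seurat. They state GRCm39 for counting, the labels mm10. The deposited barcode and label files are not measurements. Barcode suffixes gave the library and no nucleus was dropped. Counts were summed per library over the Glut_1 nuclei. Intervals are exact (Poisson, binomial or conditional binomial). Genes with at least 100 UMIs over both libraries were compared. Chromosomes came from GENCODE for 7574 of 7731 genes. Groups came from Leiden clustering at resolution 0.5 on log counts per 10000, with 2000 variable genes off X and Y, 30 principal components and 15 neighbors. Named genes were fixed by rule: list members, the 20 leading genes by the lower library, the 10 highest and 10 lowest ratios with at least 200 UMIs, the 10 extremes against each most alike cluster, up to 5 leading genes per group (at least 50 UMIs), the 10 most abundant, and the TGF-beta receptors and sex-linked genes. Members and lists were chosen with earlier results of these data known. Chosen after values were seen were the thinning depth, oligodendrocytes as background, the inhibitory gene set, the comparison of region lists with other neurons, the Hox family without *Hoxb13*, the 50 UMI minimum, the 1.5-fold range, the region sums without shared or leading genes, the share without Glut_5, the share of all genes raised in group 3 and the removal of group 3. A clustering with scaled values was seen first. Python 3.11.15, scanpy 1.11.5, scipy 1.17.1, R 4.3.3 and edgeR 4.0.16 (TMM alternative) were used, and the ratio step was tested on simulated data. Alternatives changed scaling, filters, weighting, depth, denominators and clustering.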

Additional observations from a re-analysis of the deposited data

How the results depend on the processing

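The share of Glut_1 was 12.9% in control and 16.3% in CKO with nuclei of at least 1000 UMIs, 19.8% and 25.1% of neuron-labeled nuclei, and 11.5% and 17.9% of nuclei not labeled endothelial, higher in CKO each time. Of neuron-labeled nuclei without Glut_5, chosen after seeing the data, it was 25.6% and 25.9%. Genes past 2-fold numbered 3 higher and 28 lower with at least 500 UMIs, 527 and 2134 with at least 10 UMIs, and 52 and 709 with equal weight per nucleus. Those lower numbered 209 (of 6740 genes tested) without nuclei holding 2 markers of a non-neuronal list (332 control and 168 CKO nuclei left out) and 213 (of 7047 genes) with control thinned to the UMIs of CKO. TMM scaling gave 25 and 290, nuclei with at least 1000 UMIs 27 and 273, equal weight per group 26 and 335, and leaving out X and Y 21 and 326. Leaving out group 3, chosen after seeing the data, gave 23 and 263. Lower genes outnumbered higher ones in each of these. Function lists with a member past 2-fold numbered 7 with TMM scaling, where *Hif1a* was no longer past 2-fold, and 5 with nuclei of at least 1000 UMIs, groups 7 and 23 at resolutions 0.25 and 1, and non-neuronal marker sums were 3287 CPM in control and 3315 CPM in CKO with such nuclei, against 3349 and 3408 CPM with all. Most of that sum is *Lhfpl3*, *Gpc5* and *Htr2c*, so it does not show the lists that are lower in CKO. The cause of these shifts was not tested. All 10 highest and 10 lowest genes kept their direction in every alternative run, *Uty*, *Vgf* and *Polg* fell under 2-fold in some, and *Dvl1*, just under 2-fold as reported, lay past it in others. Over named genes and alternatives 1946 ratios stayed within the interval reported and 326 did not. Glut_14 and Glut_19 were the most alike clusters under each alternative. No paired analysis was possible because each genotype has 1 library. Depth limits genes under 200 UMIs most.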
